A study of Mus musculus with 104 samples.

Results

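Cadherins and protocadherins were followed across 52 pieces of the adult mouse nervous system and its attached glands. The set held every gene whose symbol is Cdh followed by a number or starts with Pcdh, which gave 56 genes of the 18193 with a probe set of their own, 21 named Cdh and 35 named Pcdh. Each gene was represented by its probe set with the highest mean over all arrays. A further 37 family symbols of the RefSeq gene table (Cdh12, Cdh24, 14 Pcdha and 21 Pcdhg genes) had no such probe set and were not analysed here. The alpha and gamma clusters are thus represented by 1 gene, Pcdhgc4.

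All groups were male Balb/c mice of 7 to 8 weeks with no genetic change or drug named, and the labels set them apart by region alone. The protocol mentions both a light-dark cycle and constant darkness without saying which applied to a sample. Affymetrix arrays, which report the brightness of short probes for each transcript, were run in duplicate on RNA from POA/BF, a punch of the preoptic area and basal forebrain, and from 51 other regions. Each sample was RNA pooled from pieces collected at 4-hour intervals over 1 day. Of the 52 regions, 49 are brain or spinal cord and the others are the retina, the pituitary and the pineal gland. The study states that each region was sampled independently 2 times but not whether animals differed for the 2 arrays of a region, and the p-values thus reflect how far 2 such arrays lie apart, a spread that may be technical.

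Cadherins are calcium-dependent adhesion proteins that hold cells to neighbours carrying a matching cadherin. Classical cadherins of type I and type II bind catenins, which tie them to the actin cytoskeleton, and in the brain different neurons and nuclei carry different combinations of them. Protocadherins lack the catenin-binding tail. The delta-1 and delta-2 protocadherins are single genes that act in axon growth, sorting and synapse formation, while the clustered alpha, beta and gamma protocadherins lie in tandem arrays from which each neuron expresses its own small subset.

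Levels are given on the deposited log2 scale, where a step of 1 is a 2-fold difference, and they are compared between regions for the same gene and never between genes. The median of all values was 7.39, and 43 of the 56 genes reached it in at least 1 region mean. A fold whose lower level lies under this median is uncertain in size. Arrays give no counts, so the number of arrays limits the precision: the median SD between the 2 arrays of a region was 0.099 over these genes. By the 43 brighter genes alone, 94 arrays lay nearest to the other array of their own region and 10 did not; by all genes 95 did. In pooled tissue, fewer cells of a type and less RNA per cell cannot be told apart.

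Some arrays carried markers that do not belong to their label. The retina arrays held growth hormone mRNA (Gh) at 14.69 ± 0.11 (SD, n = 2), as in the pituitary (14.71 ± 0.08), together with photoreceptor markers, and they were highest of the 52 regions for the mean of 8 meninges genes (11.50) and of 8 endothelial genes (10.55). The arrays labelled lateral hypothalamus had Pmch at 7.70 and Hcrt at 7.55, and both genes peaked in the arrays labelled dorsomedial nucleus. Control rows of both POA/BF arrays were out of place in the deposited table, whereas their gene rows correlated at r = 0.98 with the median of the other regions across genes.

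Regional differences were tested over all 52 regions at once with a moderated F test in limma, adjusted over all 18193 genes by the Benjamini-Hochberg method. A gene was called when the adjusted p was under 0.05 and its region means spanned at least 2-fold. By this rule 38 of the 56 genes (67.9%) were called, against 60.3% of all genes. At a span of at least 4-fold the count was 25 (44.6%), against 26.9% of all genes. By adjusted p alone 54 genes passed, where 95.1% of all genes did. The exceptions were Pcdh12 (adjusted p = 0.147) and Pcdhb4 (0.154). The median span between the highest and lowest region was 1.73 log2 units for the 56 genes and 1.24 for all genes, and within the 49 brain and spinal cord regions it was 1.42 against 0.955. Without the pineal gland, pituitary and retina 36 genes were called, and the share of all genes in that fit is not given here. By span alone, with no p, 36 of the 56 genes reached 2-fold within those 49 regions, where 47.5% of all genes did. In 19 genes both arrays of the highest region lay above all other arrays, where 36.2% of all genes showed this, and in 17 both arrays of the lowest region lay below all others (19.4% of all genes).

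**Figure D1:**
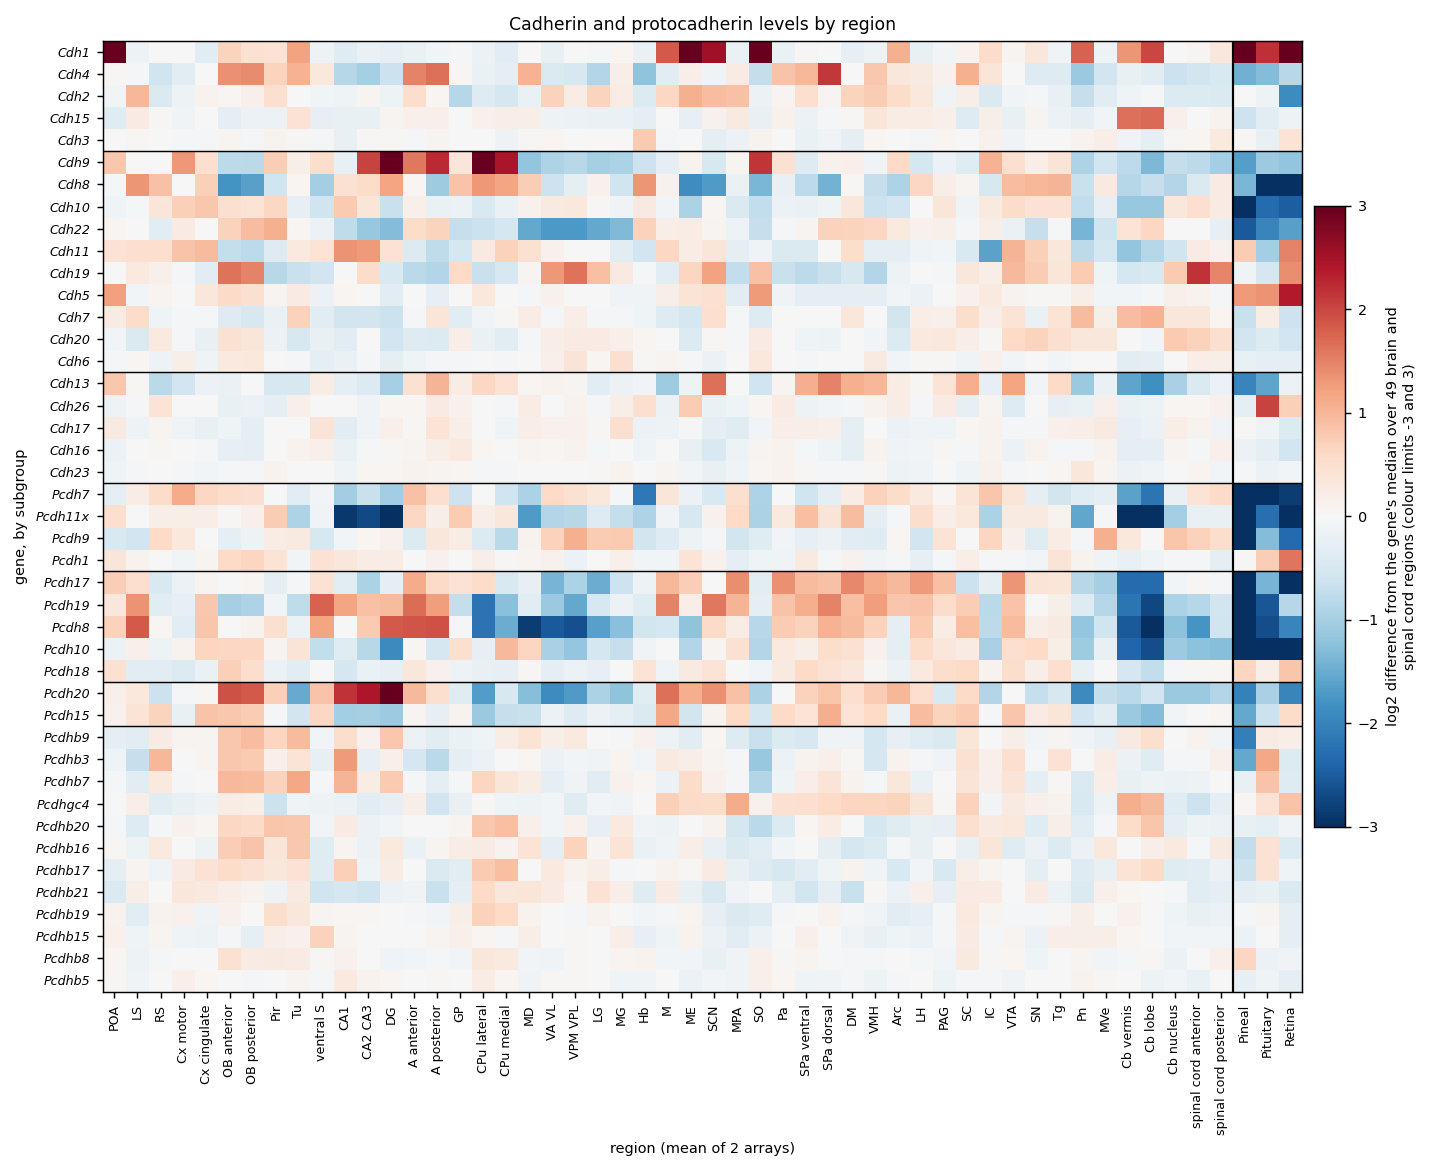
Levels of the 43 cadherins and protocadherins with a region mean of at least 7.39. Each cell is a region mean of 2 arrays minus the median of that gene over 49 brain and spinal cord regions, on the log2 scale, with colours limited to -3 and 3. Horizontal lines part the subgroups, in the order type I, type II, other cadherins, delta-1, delta-2, other protocadherins and clustered. Strong colours gather in the delta protocadherins, in Cdh1, Cdh9 and Cdh8, in both cerebellar cortex regions, and in the pineal gland, pituitary and retina to the right of the vertical line, while most clustered genes stay pale.

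The subgroups spanned different ranges. The 5 delta-2 genes had a median span of 5.13 log2 units (1.56 to 5.37), the 4 delta-1 genes 4.29 (1.89 to 4.61), the 11 type II genes 3.06 (0.78 to 4.66) and the 5 type I genes 2.95 (1.08 to 6.58). The 23 clustered genes had a median span of 1.00 (0.36 to 3.01). Within the 49 brain and spinal cord regions the medians were 3.75 for delta-2, 2.59 for delta-1, 1.95 for type II, 2.08 for type I and 0.74 for clustered genes, so the order of type I and type II turned. By the rule for the 52 regions, 60.3% of all genes were called. Called were 5 of 5 delta-2, 4 of 4 delta-1, 9 of 11 type II, 5 of 5 type I and 11 of 23 clustered genes. Of the other 8 genes, 4 were called: Cdh13, Cdh26, Pcdh20 and Pcdh15. No test compared the subgroups with each other. They also differed in brightness: 12 of the 23 clustered genes reached the median of all values in a region mean. All type I, delta-1 and delta-2 genes and 10 of 11 type II genes did so. The clustered genes Pcdhb12 and Pcdhb18 were called without reaching that median. The part of dim signal in the narrow span of the clustered genes was not tested.

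The delta-2 protocadherins are described first because their median span was the widest of the subgroups. Pcdh8, also called arcadlin, is a protocadherin of synapses whose gene is switched on by neuronal activity. It stood at 12.08 and 12.11 in the posterior amygdala, 11.94 and 12.18 in the anterior amygdala, 12.04 and 11.99 in the dentate gyrus, and 12.12 and 11.90 in the lateral septum. At the other end were the cerebellar cortex lobe at 7.02 and 6.90, the pineal gland at 7.20 and 7.18, and the mediodorsal thalamic nucleus at 7.53 and 7.15. The arrays of these 4 highest regions lay within 11.90 to 12.18 and their order was not resolved, while both arrays of the cerebellar lobe lay below every other array. The span was 5.13, with an adjusted p of 3.90e-41 in the limma F test, and it was as wide within the 49 brain and spinal cord regions. The gene's other probe set followed the same pattern at r = 0.993 over the 52 regions.

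Pcdh19, the X-linked member whose human counterpart is mutated in a form of epilepsy that mainly affects females, resembled Pcdh8. It was highest in the ventral subiculum at 11.53 and 11.63, then in the anterior amygdala at 10.98 and 11.99 and the suprachiasmatic nucleus at 11.43 and 11.32. The anterior amygdala arrays lay 1.01 apart, so the order of these 3 regions was not resolved. It was lowest in the pineal gland at 6.45 and 6.15, and in brain in the cerebellar lobe at 7.12 and 7.01. Across regions Pcdh19 and Pcdh8 correlated at r = 0.84 over 52 region means and 0.82 over 49.

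Pcdh17, which acts in the assembly of presynaptic terminals in corticostriatal circuits, had its highest means in the dorsomedial hypothalamic nucleus (11.54 and 11.31), the medial preoptic area (11.26 and 11.50) and the paraventricular nucleus (11.33 and 11.38). These overlapped. Its lowest were the pineal gland (6.21 and 5.90) and retina (6.81 and 5.82), and in brain the cerebellar lobe (7.79 and 7.55) and vermis (7.85 and 7.52). Pcdh10, also called OL-protocadherin and needed for axons that pass through the striatum, peaked in the medial caudate putamen at 10.46 and 10.24, where both arrays lay above all others. It stood at 6.52 and 6.94 in the cerebellar lobe and at 5.34 and 5.80 in the pineal gland. Further Pcdh10 probe sets peaked in the medial caudate putamen too (r = 0.973 and 0.974 with the chosen probe set). Another, nearly as bright, peaked in the anterior olfactory bulb (r = 0.697). Dimmer ones peaked in the lateral hypothalamus sample (r = 0.860) and the substantia nigra (r = 0.940). Pcdh18 spanned 1.56, from 7.69 ± 0.22 (SD, n = 2) in the retina to 6.14 ± 0.10 in the cerebellar lobe.

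The promoters of the 5 delta-2 genes are shown because the subgroup had the widest median span and 4 of the 5 genes were called lower in the cerebellar cortex. The sequences are the 250 bases before the start set in the RefSeq promoter table (build GRCm38.p6), read 5′ to 3′ on the strand of the gene. They lie at chr14:79771313-79771562 (minus strand) for Pcdh8, chr3:45378148-45378397 (plus) for Pcdh10, chr14:84443313-84443562 (plus) for Pcdh17, chr3:49757317-49757566 (minus) for Pcdh18 and chrX:133688994-133689243 (minus) for Pcdh19. In the RefSeq gene table Pcdh18 and Pcdh19 begin at 49757383 and 133689044. Both positions are inside the printed bases, so part of each of these sequences lies within the gene by that table. Capitals mark the CCAAT motif on either strand, which on the reverse strand reads ATTGG, and TATAAA.
Pcdh8: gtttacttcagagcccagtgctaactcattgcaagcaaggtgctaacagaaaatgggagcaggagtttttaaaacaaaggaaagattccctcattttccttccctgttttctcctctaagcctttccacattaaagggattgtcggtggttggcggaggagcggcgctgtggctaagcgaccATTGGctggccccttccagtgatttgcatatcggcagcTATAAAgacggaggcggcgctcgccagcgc
Pcdh10: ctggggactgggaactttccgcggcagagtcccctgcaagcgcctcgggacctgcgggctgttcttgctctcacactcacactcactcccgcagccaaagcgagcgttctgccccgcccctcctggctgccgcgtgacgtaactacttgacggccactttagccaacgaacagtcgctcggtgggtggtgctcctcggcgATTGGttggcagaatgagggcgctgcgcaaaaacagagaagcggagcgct
Pcdh17: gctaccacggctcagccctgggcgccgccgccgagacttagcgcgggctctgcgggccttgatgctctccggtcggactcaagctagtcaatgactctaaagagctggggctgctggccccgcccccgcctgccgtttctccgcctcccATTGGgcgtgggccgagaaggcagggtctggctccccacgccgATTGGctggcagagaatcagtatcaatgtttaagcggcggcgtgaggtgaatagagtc
Pcdh18: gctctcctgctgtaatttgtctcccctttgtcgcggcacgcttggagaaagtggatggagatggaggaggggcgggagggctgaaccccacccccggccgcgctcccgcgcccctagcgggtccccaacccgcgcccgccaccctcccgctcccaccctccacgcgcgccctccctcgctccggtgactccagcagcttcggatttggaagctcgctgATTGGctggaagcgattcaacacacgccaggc
Pcdh19: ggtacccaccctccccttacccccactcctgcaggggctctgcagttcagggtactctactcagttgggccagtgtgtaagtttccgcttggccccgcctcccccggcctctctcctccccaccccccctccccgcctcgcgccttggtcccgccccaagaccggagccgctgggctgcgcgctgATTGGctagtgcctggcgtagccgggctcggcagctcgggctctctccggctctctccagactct
All 5 sequences held the CCAAT motif in reverse, at 32 to 101 bases before the start of the promoter table: at 68 in Pcdh8, 50 in Pcdh10, 101 and 58 in Pcdh17, 32 in Pcdh18 and 65 in Pcdh19. By the gene table the Pcdh18 motif lies after the start, inside the gene, and the Pcdh19 motif lies before the start but closer to it. In the windows of 300 bases that the table holds (250 before the start and 50 after it), CCAAT on either strand was present in 37.4% of all 32851 windows, and in the first window of 15 of the 20 family genes matched in the table. The motif was chosen after the 5 sequences had been read. TATAAA on either strand was found in Pcdh8 and, among the other family genes, in Pcdh15, against 13.6% of all windows. CG dinucleotides numbered 14 in the Pcdh8 window and 24, 26, 23 and 18 in those of Pcdh10, Pcdh17, Pcdh18 and Pcdh19, where the median of all windows was 7. A match in letters is a description and not a binding site.

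Among the delta-1 protocadherins, Pcdh11x, an X-linked protocadherin, had its highest and second highest means in hypothalamic samples and was low in the cerebellar cortex and 3 hippocampal fields. It reached 9.96 and 9.58 in the dorsomedial nucleus and 9.84 and 9.67 in the ventral subparaventricular zone, and its median over the 52 regions was 8.81. Arrays of 4 regions overlapped with those of the dorsomedial nucleus, and the third highest mean was that of piriform cortex (9.62). Not all hypothalamic samples were high: the supraoptic nucleus stood at -0.95 from the gene's median over brain and spinal cord. Pcdh11x stood at 5.80 and 5.59 in the cerebellar lobe and 5.99 and 5.56 in the vermis, and it was lowest in the pineal gland at 5.18 and 5.29. It was also low in CA1 (5.95 and 5.99), CA2/CA3 (6.31 and 6.00) and the dentate gyrus (5.80 and 5.93), but not in the ventral subiculum (8.75 and 8.74). Pcdh7 ran from 10.19 and 10.46 in motor cortex to 6.98 and 7.07 in the cerebellar lobe and 6.19 and 5.24 in the pituitary. Pcdh9 had its highest means in the ventral posterior thalamic nuclei (12.36 and 12.57) and the medial vestibular nucleus (12.42 and 12.49), which overlapped, and its lowest in the pineal gland (8.50 and 8.33). Pcdh1 was at most 7.59 ± 0.03, in the retina, and spanned 0.93 within brain and spinal cord.

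Pcdh20, a protocadherin outside the delta and clustered groups, was highest in the hippocampus and olfactory bulb. It stood at 11.74 and 11.79 in the dentate gyrus, 11.02 and 11.19 in CA2/CA3, 10.94 and 10.77 in CA1, 10.61 and 10.58 in the anterior olfactory bulb and 10.59 and 10.47 in the posterior olfactory bulb. Both dentate arrays lay above all others. It was at 6.66 and 6.86 in the pontine nucleus and 7.02 and 6.58 in the ventral anterior and ventrolateral thalamus. Pcdh15, a part of the tip link of hair cells, spanned 2.70 and had its highest mean in the mammillary body (7.84 and 8.58), whose arrays overlapped with those of 11 other regions, so its top region was not resolved.

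**Figure D2:**
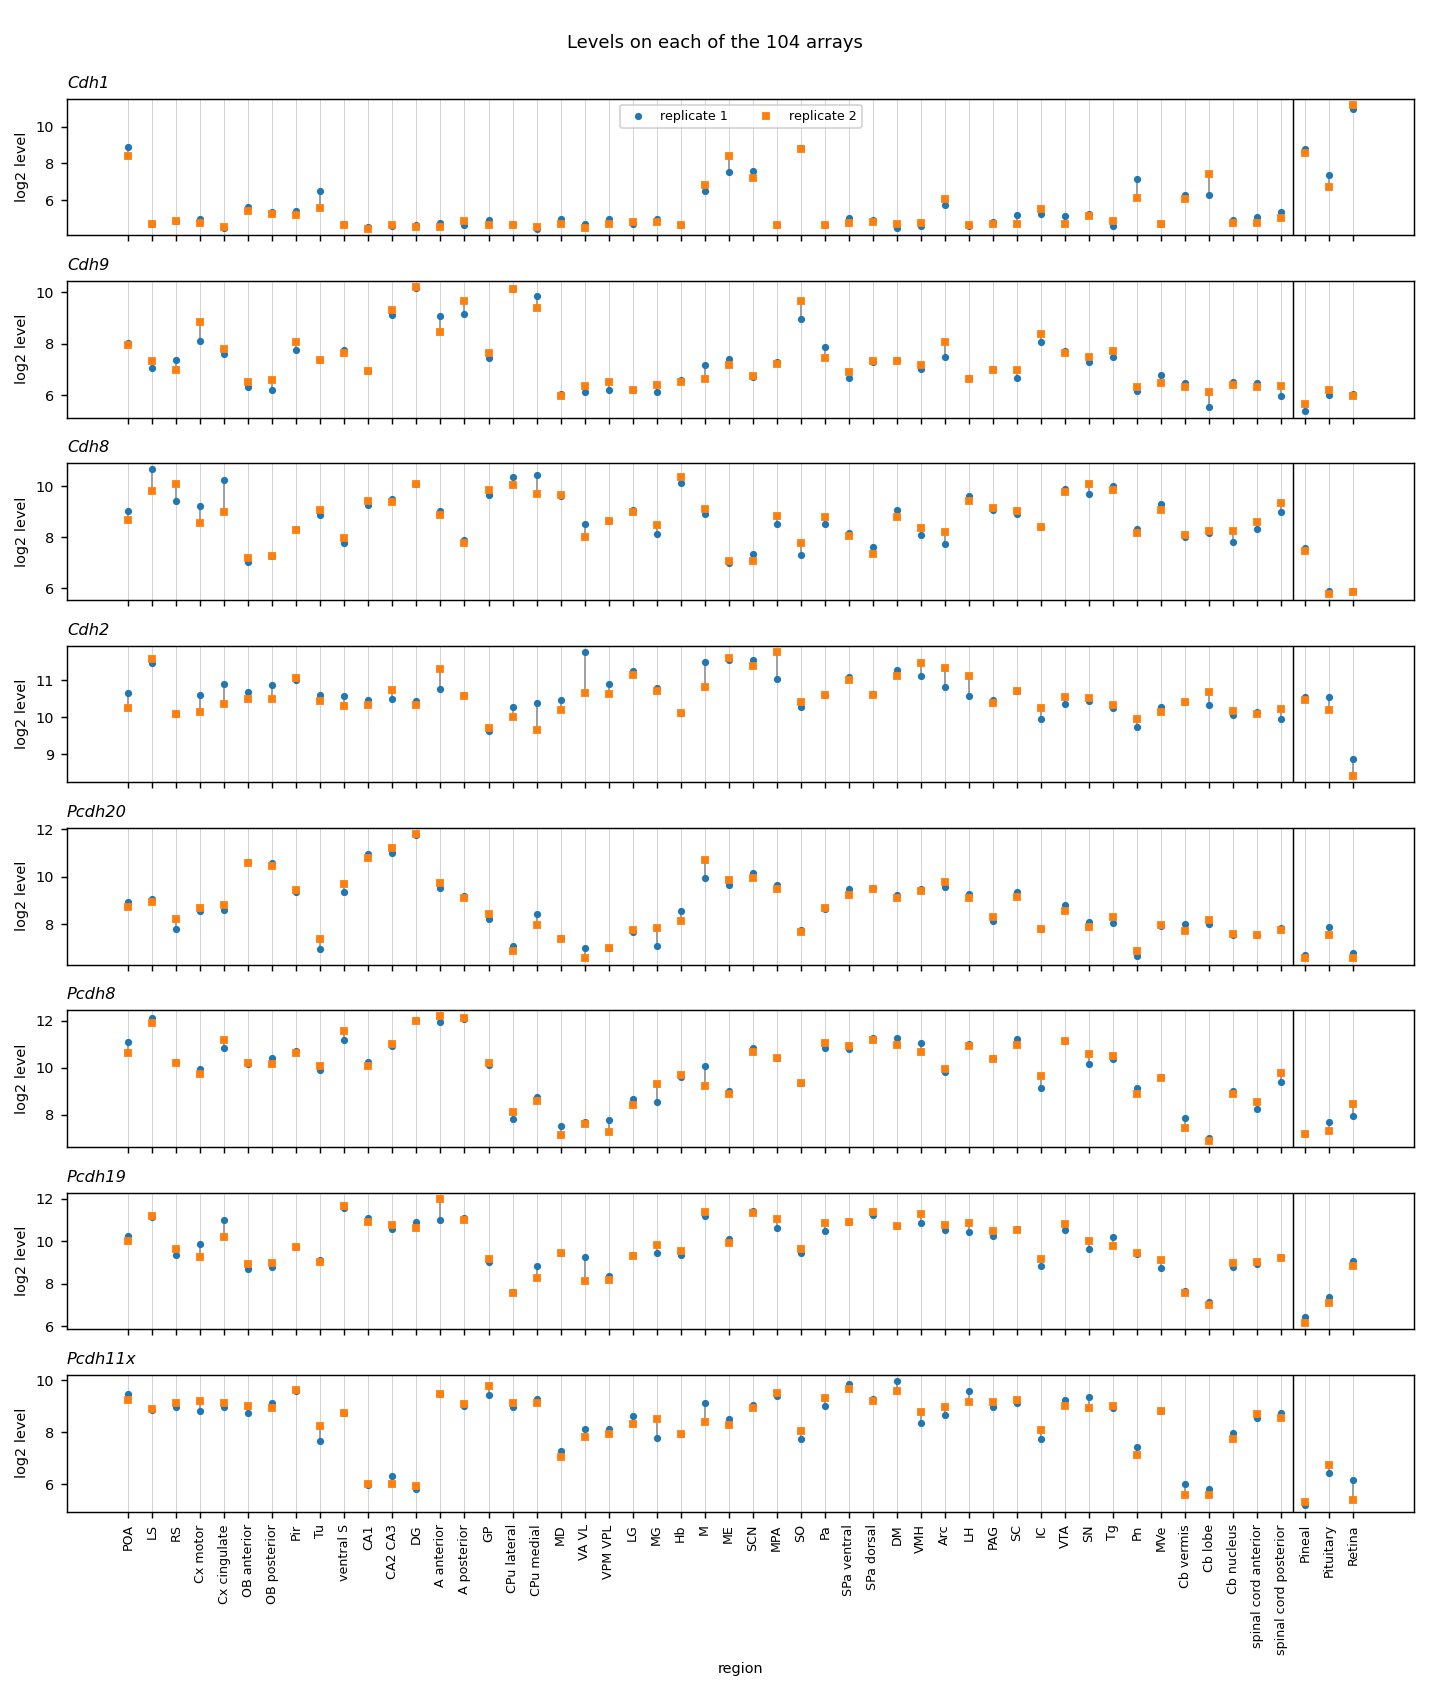
Levels of 8 genes on each array, on the log2 scale, by region; circles are replicate 1, squares are replicate 2, and grey lines join the 2 arrays of a region. Regions right of the vertical line are pineal gland, pituitary and retina. Cdh1 is near its floor of 4.5 in most regions, Cdh9 and Pcdh20 peak in the dentate gyrus, and Pcdh8, Pcdh19 and Pcdh11x are low in the cerebellar cortex.

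Among the type II cadherins, which guide the choice of synaptic partners, Cdh9 had the widest span, 4.66. Cdh9 is needed for the mossy fibre synapses that dentate granule cells make on CA3 neurons. It was at 10.16 and 10.21 in the dentate gyrus, 10.13 and 10.15 in the lateral caudate putamen, 9.87 and 9.39 in the medial caudate putamen and 9.12 and 9.30 in CA2/CA3. In CA1 it was at 6.95 and 6.96, in the mediodorsal thalamus at 6.04 and 5.95 and in the pineal gland at 5.37 and 5.67. The dentate arrays lay above all others, but by 0.01 over the lateral caudate putamen, less than the SD of 0.03 between them.

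Cdh8, which marks subsets of projection neurons, was highest in the habenula (10.11 and 10.35), the lateral septum (10.66 and 9.80), the lateral caudate putamen (10.35 and 10.03) and the dentate gyrus (10.08 and 10.09), and the septal arrays spanned the other 3 regions. It was low in the anterior olfactory bulb (7.03 and 7.16), the median eminence (6.98 and 7.07), the retina (5.87 and 5.86) and the pituitary (5.89 and 5.78). Cdh10 was highest in cingulate cortex (10.25 and 10.20), CA1 (10.22 and 10.19) and motor cortex (10.11 and 10.17), and lowest in the pineal gland (5.99 and 6.33). Its span of 4.06 narrowed to 1.95 within brain and spinal cord. Another Cdh10 probe set followed it at r = 0.867 and yet another at r = 0.193, the weakest match among the family's brighter probe sets.

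Cdh22 was highest in piriform cortex (10.03 and 10.05) and the posterior olfactory bulb (9.80 and 10.01), and in brain lowest in the ventral anterior and ventrolateral thalamus (7.23 and 7.28). Both piriform arrays lay above all others. Cdh11 reached 10.70 and 10.68 in CA1 and 10.58 and 10.68 in CA2/CA3 against 7.67 and 7.80 in the inferior colliculus, where it was below every other array. The retina mean of Cdh11, 10.84, came from arrays at 11.55 and 10.14. The spread there was 1.00 (SD), so the retina was not separated from CA1.

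Cdh19, a cadherin of glia, was highest in the anterior spinal cord (9.07 and 8.89), then in the ventral posterior thalamus (8.52 and 8.37) and the anterior olfactory bulb (8.37 and 8.51), and lowest in the ventromedial hypothalamus (6.06 and 5.80). Cdh20, also on chromosome 1, was highest in the cerebellar nucleus (9.04) and lowest in the dentate gyrus (7.67). Over the 49 brain and spinal cord regions the mean of 6 oligodendrocyte markers correlated with Cdh19 at r = 0.72 and with Cdh20 at r = 0.69. That list was highest in the anterior spinal cord, at 12.34. It stood at 12.14 in the ventral posterior thalamus but at 9.82 in the anterior olfactory bulb, under its median of 10.86 over brain and spinal cord. The next most alike list for both genes was that of 6 astrocyte markers, at r = 0.58 and 0.53. The part of oligodendrocytes or astrocytes in the levels of Cdh19 and Cdh20 was not tested.

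Among the type I cadherins, Cdh2 (N-cadherin), the main cadherin of neuronal junctions, ranged in brain and spinal cord from 11.56 and 11.62 in the median eminence to 9.62 and 9.71 in the globus pallidus, and stood at 8.87 and 8.41 in the retina. Cdh4 (R-cadherin) was highest in the dorsal subparaventricular zone at 10.63 and 10.67, above all other arrays, followed by the posterior amygdala (10.05 and 10.28), and it was at 7.17 and 7.45 in the habenula. Another Cdh4 probe set followed this pattern at r = 0.946 but peaked in the anterior amygdala (9.34). Cdh15 (M-cadherin), known from muscle, was at 8.47 and 8.63 in the cerebellar lobe and 8.63 and 8.37 in the vermis, while the remaining 100 arrays reached at most 7.36. Over 49 regions it followed the mean of 4 cerebellar cortex markers at r = 0.78. Cdh3 was called with a span of 1.08, highest in the habenula (7.41).

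Cdh1 (E-cadherin), the cadherin of epithelia, had the widest span of the family over the 52 regions, 6.58 or 95.5-fold. Within the 49 brain and spinal cord regions its span of 4.32 was below those of Pcdh8 (5.13), Pcdh20 (5.00), Pcdh19 (4.51) and Cdh9 (4.36). It was at 10.96 and 11.18 in the retina, 8.84 and 8.79 in the supraoptic nucleus, 8.77 and 8.56 in the pineal gland, 8.87 and 8.40 in POA/BF and 7.52 and 8.39 in the median eminence. Its median over the regions was 4.87, far below 7.39, and the fold is therefore not well determined. Cdh5 (VE-cadherin), the cadherin of blood vessel walls, was at 9.80 and 9.64 in the retina, 8.82 and 8.55 in the pituitary, 8.52 and 8.71 in the pineal gland, 8.66 and 8.55 in the supraoptic nucleus and 8.61 and 8.51 in POA/BF. For both genes the retina lay above all other arrays.

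The same regions led the lists of vessel and meninges markers. The mean of 8 meninges and fibroblast genes was 11.50 in the retina, 10.46 in the pineal gland, 10.23 in POA/BF, 10.23 in the supraoptic nucleus and 10.02 in the median eminence, with a median of 7.53 over brain and spinal cord. The mean of 8 endothelial genes was 10.55 in the retina and 8.88, 8.77, 8.62 and 8.6 in the supraoptic nucleus, pineal gland, pituitary and POA/BF, with a median of 8.06. Over 49 regions Cdh1 followed the meninges list at r = 0.91, and Cdh5 followed the endothelial list at r = 0.82. All 8 genes of each list were measured. The part of meninges and vessels in the 2 cadherins' levels was not tested.

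**Figure D3:**
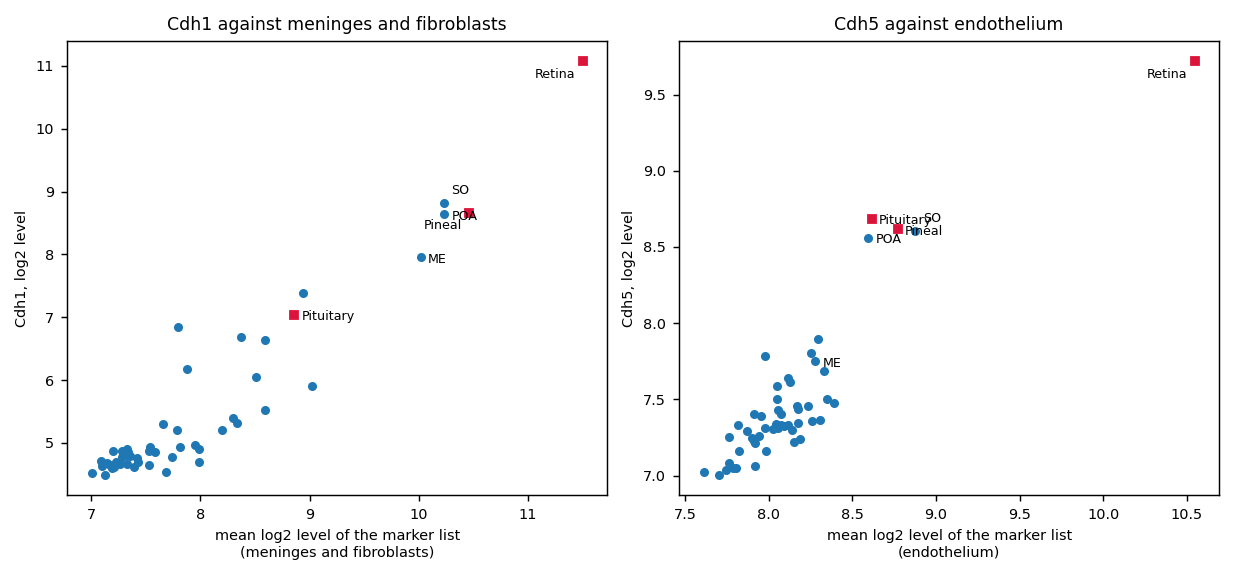
Region means of Cdh1 against the mean of 8 meninges and fibroblast genes (left) and of Cdh5 against the mean of 8 endothelial genes (right), both on the log2 scale. Each point is 1 of 52 regions, with squares for pineal gland, pituitary and retina. Retina, supraoptic nucleus, POA/BF and pineal gland stand at the upper right of both panels.

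Cdh13 (T-cadherin), which lacks the part that crosses the membrane and is held by a lipid anchor, was highest in the suprachiasmatic nucleus at 11.26 and 11.37, above all other arrays, and next in the dorsal subparaventricular zone (11.22 and 11.10). It was at 8.19 and 7.99 in the cerebellar vermis and 7.91 and 7.74 in the lobe. Another Cdh13 probe set followed this pattern at r = 0.948 but peaked in the posterior amygdala (10.59). A dimmer one (r = 0.822) peaked in the ventromedial hypothalamus (8.81), so the top region differed between probe sets. Cdh26 was at 9.21 and 8.59 in the pituitary, and its next mean was 7.63 in the median eminence. Cdh16, Cdh17 and Cdh23 spanned 0.58 to 0.89 and were not called.

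Among the clustered protocadherins Pcdhb9 had the widest span, 3.01, from 9.34 and 9.32 in the olfactory tubercle to 6.57 and 6.07 in the pineal gland, but within brain and spinal cord its span of 1.61 was below those of Pcdhb3 (2.40), Pcdhb7 (2.04), Pcdhgc4 (1.76) and Pcdhb20 (1.72). Pcdhb3 was at 9.08 and 8.82 in CA1, 8.97 and 8.69 in the pituitary and 8.41 and 8.95 in retrosplenial cortex, against 6.39 and 5.90 in the pineal gland. Pcdhgc4, a gamma C gene needed for the survival of neurons, had its highest mean in the medial preoptic area (8.75), overlapped by 3 other regions, and its lowest in piriform cortex (6.99). The 9 other clustered genes that reached 7.39 spanned 0.57 to 2.04, and 11 did not reach it. Cluster genes have similar sequences, and whether their probe sets share signal was not tested.

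The pineal gland had the lowest mean for 19 of the 56 genes, where 6.86% of all genes were lowest there. The retina was lowest for 10 (15.0% of all genes) and the pituitary for 2 (5.23%). Against the median of each gene over brain and spinal cord, 17 of the 43 brighter genes were at least 2-fold lower in the pineal gland (9.52% of the 14036 genes that reached 7.39), 14 in the pituitary (8.91%) and 12 in the retina (10.6%). These shares are descriptions with no test. Within the brain, the largest count at least 2-fold lower was 10, in the cerebellar lobe (3.31% of all such genes) and in the vermis (2.44%), followed by 7 in the pontine nucleus (1.49%), 6 in the dentate gyrus (2.5%) and 5 in each of 3 thalamic samples, the mediodorsal (1.09%), ventral anterior and ventrolateral (1.64%) and ventral posterior nuclei (1.66%). The largest count at least 2-fold higher was 5, reached in the retina (16.5%), the anterior amygdala (1.47%), the posterior amygdala (2.02%), the suprachiasmatic nucleus (3.82%), the dorsal subparaventricular zone (2.2%) and CA1 (4.77%). In the amygdala these were Cdh4, Cdh9, Pcdh19 and Pcdh8 in both pieces, with Pcdh17 in the anterior and Cdh13 in the posterior piece.

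Single comparisons between divisions of the brain came from the same limma fit, with region means weighted equally and the adjusted p taken over all 18193 genes. A gene was called here when its groups stood at least 2-fold apart with an adjusted p under 0.05. Because every array takes part in several comparisons, their results are not independent of each other. The spread behind each p is that between the 2 arrays of a region; the spread between the regions of a division enters only where region means were taken as the samples, which is stated where it removes a call. By adjusted p at any fold, 19 of the 56 genes passed for POA/BF (27.6% of all genes), 26 for isocortex (44.2%), 35 for the hippocampal formation (49.6%), 35 for striatum (51.9%), 30 for thalamus (52%), 45 for hypothalamus (62.5%), 39 for cerebellar cortex (64.3%), 8 for CA1 against CA2/CA3 (20.1%) and 16 for the dentate gyrus (27.8%).

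The comparison of the cerebellar cortex with the other 47 regions of brain and spinal cord had the most calls: 2 genes were higher and 11 lower of 56 (23.2%), against 5.51% of all genes in either direction, 2.78% higher and 2.73% lower. Pcdh11x on the 4 cerebellar cortex arrays ran from 5.56 to 5.99, and on the 94 others from 5.80 to 9.96 with a median of 8.91, a difference of -2.87 ± 0.10 (SE), 7.3-fold lower (adjusted p = 1.86e-33). Pcdh17 ran from 7.52 to 7.85 against 8.00 to 11.54 (-2.47 ± 0.13, adjusted p = 5.54e-25). Pcdh10 ran from 6.52 to 7.27 against 7.39 to 10.46 (-2.37 ± 0.10, adjusted p = 3.93e-31), and neither gene overlapped. Pcdh8 differed by -2.76 and Pcdh19 by -2.63 on the log2 scale, and 7 and 2 of the other arrays overlapped theirs. Thus 4 of 5 delta-2 genes were called lower, and the fifth, Pcdh18, stood at -0.68 ± 0.07.

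Pcdh7 differed by -1.89 (overlapped by 2 of the 94 arrays) and Cdh13 by -1.80 (not overlapped). The remaining lower calls were Cdh9 (-1.30), Pcdh15 (-1.27), Cdh10 (-1.17) and Cdh11 (-1.07). Cdh15 ran from 8.37 to 8.63 against 6.27 to 7.36 in the other regions, with no overlap, a difference of 1.69 ± 0.07 or 3.24-fold (adjusted p = 4.99e-30). Cdh1 was called 1.27 ± 0.12 higher, with cerebellar arrays from 6.06 to 7.42, of which the highest was replicate 2 of the lobe. With region means as the samples Cdh1 was no longer called (adjusted p = 0.242), and without that array its difference was 0.98. In that setting 10 of the 13 calls were kept, and Cdh9 (adjusted p = 0.248) and Cdh11 (0.0851) were the other lost calls. When all probe sets of a gene were averaged, Pcdh7 stood at -0.93, Cdh10 at -0.84, Cdh11 at -0.82 and Pcdh15 at -0.59, short of 2-fold.

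The hippocampal formation, made of CA1, CA2/CA3, dentate gyrus and ventral subiculum, had 4 genes higher and 1 lower (8.93%), against 2.65% of all genes in either direction, 1.76% higher and 0.885% lower. Pcdh20 ran from 9.38 to 11.79 with a median of 10.98 on the 8 hippocampal arrays and from 6.58 to 10.69 with a median of 8.49 on the 90 others, a difference of 2.28 ± 0.06, 4.86-fold (adjusted p = 1.98e-39). Of the others 22 overlapped, and the lowest hippocampal arrays were those of the ventral subiculum, at 9.38 and 9.70. Pcdh11x differed by -1.96 ± 0.08, 3.9-fold lower, with hippocampal arrays from 5.80 to 8.75. Pcdh8 (1.26), Cdh9 (1.25) and Pcdh19 (1.24) were called higher against the spread between arrays. With region means as the samples their adjusted p were 0.279, 0.174 and 0.186, while Pcdh20 and Pcdh11x kept their calls.

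Within the hippocampus, CA1 differed from CA2/CA3 in 2 genes (3.57%), against 1.83% of all genes, 0.995% higher and 0.835% lower. Cdh9 was at 6.95 and 6.96 in CA1 and 9.12 and 9.30 in CA2/CA3, a difference of -2.26 ± 0.20 or 4.78-fold (adjusted p = 1.67e-13). Pcdhb3 was at 9.08 and 8.82 in CA1 against 7.34 and 7.53 in CA2/CA3, a difference of 1.51 ± 0.16 or 2.85-fold (adjusted p = 4.74e-11). Neither pair overlapped. The dentate gyrus differed from the mean of both CA fields in 4 genes (7.14%), against 2.33% of all genes, 0.676% higher and 1.65% lower. Cdh9 (2.10 ± 0.18) and Pcdh8 (1.45 ± 0.17) were higher and Pcdh10 (-1.30 ± 0.16) and Cdh10 (-1.25 ± 0.14) lower, with no overlap between the 2 dentate and 4 CA arrays. How often groups this small overlap was not counted over all genes, so in both comparisons the lack of overlap adds no support. With all probe sets of a gene averaged, Pcdh10 and Cdh10 stood at -0.78 and -0.55 and were not called.

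The striatum, made of the lateral and medial caudate putamen and the olfactory tubercle, had 2 genes higher and 3 lower (8.93%), against 4.46% of all genes, 2.23% in each direction. Cdh9 ran from 7.36 to 10.15 on 6 arrays and from 5.54 to 10.21 on 92 others, a difference of 1.80 ± 0.09 or 3.47-fold (adjusted p = 1.48e-27). Both caudate putamen samples were high, and the lower end was the olfactory tubercle, at 7.36 on both arrays. Pcdh19 ran from 7.58 to 9.10 against a median of 10.01 elsewhere (-1.56 ± 0.10, adjusted p = 2.86e-22). Pcdh20 (-1.35) and Pcdh8 (-1.15) were lower and Cdh8 (1.02) higher. With region means as the samples Cdh9 alone of these 5 kept its call, which it lost at adjusted p = 0.0747 once the hybridisation controls were added to that fit. The adjusted p were 0.095 for Pcdh19, 0.214 for Pcdh20, 0.383 for Pcdh8 and 0.216 for Cdh8. Cdh8 also passed under 2-fold without replicate 1 of the medial caudate putamen (0.89), replicate 1 of the lateral caudate putamen (0.97) or replicate 2 of the tubercle (0.99), and at 0.74 with its probe sets averaged.

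The thalamus, with 5 regions, had 0 genes higher and 5 lower (8.93%), against 2.41% of all genes in either direction, 1.32% higher and 1.09% lower. Pcdh8 ran from 7.15 to 9.29 on 10 arrays with a median of 7.75, against a median of 10.31 on the 88 others, a difference of -2.18 ± 0.07 or 4.55-fold (adjusted p = 1.59e-37). Cdh22 ran from 7.16 to 7.69 against 7.57 to 10.05, and 3 of the 88 other arrays overlapped (-1.56 ± 0.04, adjusted p = 1.74e-43). Pcdh20 differed by -1.61. Cdh9 (-1.28) and Pcdh17 (-1.11) had adjusted p of 0.0977 and 0.074 with region means as the samples, where the first 3 kept their calls. Pcdh20 lost its call once the hybridisation controls were added to that fit (adjusted p = 0.0726). Pcdh17 was at -0.99 without replicate 1 of the ventral anterior and ventrolateral sample. Pcdh9 was 0.70 ± 0.05 higher in the thalamus, short of 2-fold.

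The hypothalamus, with 12 regions, had 2 genes higher and 0 lower (3.57%), against 1.7% of all genes in either direction, 0.967% higher and 0.731% lower. Both are delta-2 protocadherins. Pcdh19 ran from 9.42 to 11.43 with a median of 10.83 on 24 arrays and had a median of 9.45 on the 74 others (1.16 ± 0.05, adjusted p = 1.37e-28). Pcdh17 ran from 9.64 to 11.54 with a median of 10.99, against 9.88 (1.11 ± 0.06, adjusted p = 9.45e-25). Each overlapped with the other regions, in 38 and 48 arrays. The calls held with region means as the samples and without the lateral hypothalamus and retina arrays. With its probe sets averaged Pcdh19 stood at 0.98. Pcdh20 (0.86 ± 0.04) and Pcdh11x (0.70 ± 0.05) were higher at less than 2-fold, and Cdh8 was at -0.78 ± 0.05.

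The isocortex, with 3 regions, had 0 of 56 genes called, where 2.21% of all genes were, 1.48% higher and 0.726% lower. By adjusted p alone 26 genes passed in limma. The largest differences were 0.90 ± 0.10 for Pcdh7, 0.81 ± 0.08 for Cdh11, 0.69 ± 0.07 for Cdh10 and 0.68 ± 0.10 for Cdh8, each higher and under 2-fold.

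POA/BF, the piece that gives the series its title, was set against the mean of the other 51 regions. It had 4 genes higher and 0 lower (7.14%), against 1.64% of all genes in either direction, 1.53% higher and 0.115% lower. Cdh1 was at 8.87 and 8.40, against a median of 4.85 on the other arrays, a difference of 3.19 ± 0.17 or 9.15-fold (adjusted p = 1.01e-23). Of those arrays 6 reached its level, the retina, supraoptic nucleus and pineal pairs. Cdh5 was 1.08 ± 0.09 higher, Pcdh8 1.06 ± 0.14 and Pcdh11x 1.03 ± 0.15. With its probe sets averaged Cdh5 stood at 0.56 and Pcdh11x at 0.79. The meninges list stood at 10.23 in POA/BF against 7.53 in the median brain region, and the part of meninges in the Cdh1 and Cdh5 differences was not tested. Without replicate 1 Pcdh8 and Pcdh11x stood at 0.81 and 0.92, and without the pineal gland, pituitary and retina at 0.92 and 0.88, which left 2 calls, Cdh1 and Cdh5. With region means as the samples, where POA/BF is a single sample, none of the 4 was called (adjusted p = 1 for each).

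**Figure D4:**
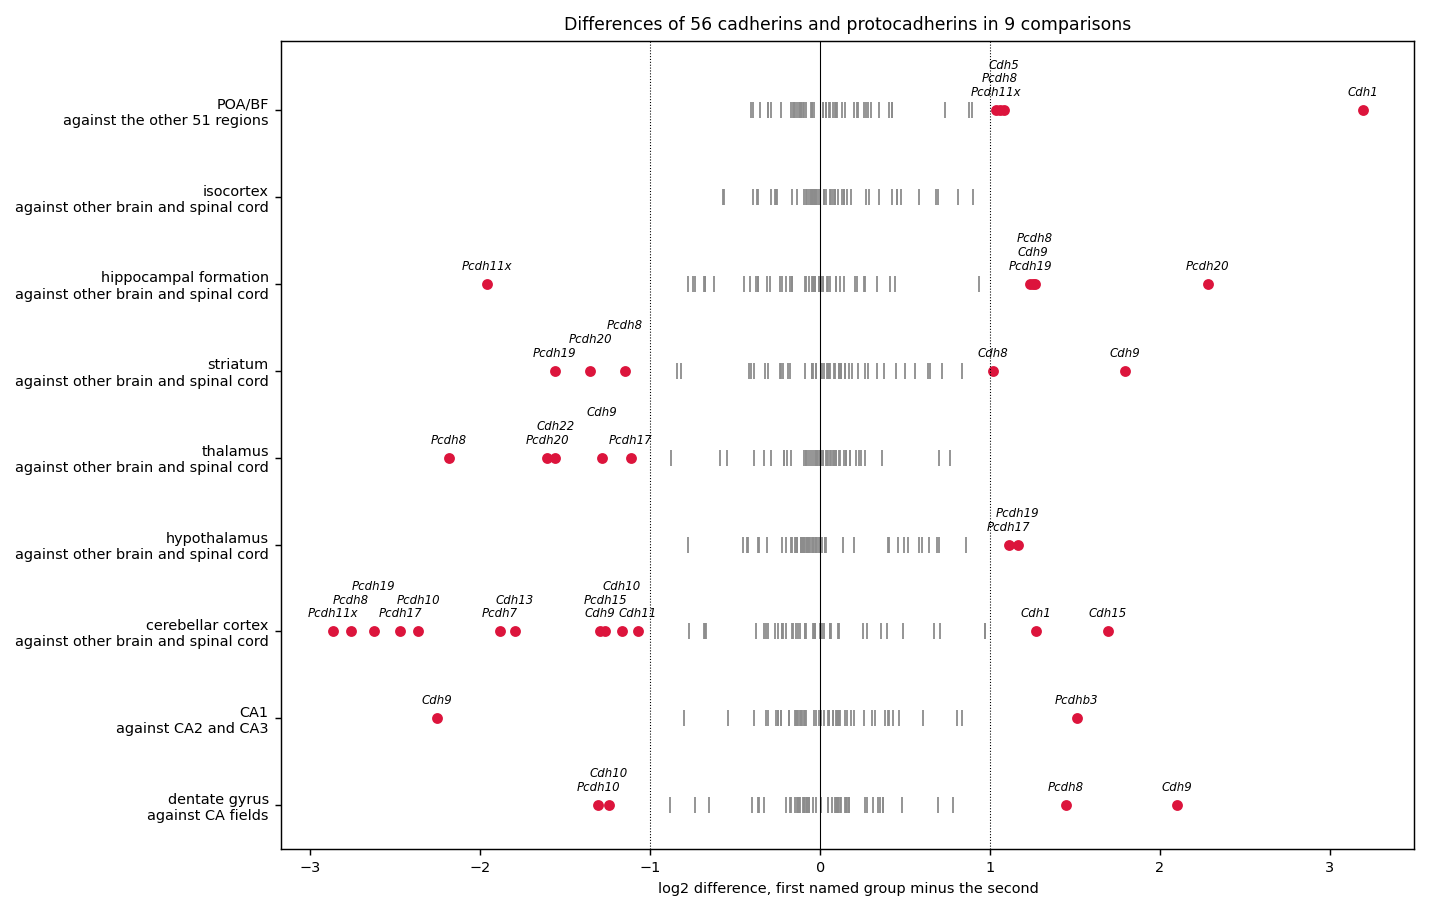
Log2 differences of the 56 genes in 9 comparisons, the first named group minus the second. Named red points were called (adjusted p under 0.05 in limma and at least 2-fold, the dotted lines), and grey ticks were not. The cerebellar cortex has the most calls, 11 of them to the left, the thalamus has calls to the left alone, and the isocortex has none.

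Regional patterns were compared between the 43 brighter genes by Pearson's r over region means, given as a description because all regions share the same arrays and tissue makeup. The 6 most alike pairs over 52 regions were Cdh1 with Cdh5 (0.86), Pcdh19 with Pcdh8 (0.84), Pcdh10 with Pcdh11x (0.79), Pcdh10 with Pcdh17 (0.77), Pcdh11x with Pcdh17 (0.77) and Cdh10 with Pcdh10 (0.76). Over 49 regions the same pairs stood at 0.74, 0.82, 0.72, 0.62, 0.67 and 0.45, with the widest drop in the last. The least alike were Cdh1 with Cdh10 (-0.68), Cdh1 with Cdh8 (-0.62) and Cdh5 with Pcdh9 (-0.59). Over 49 regions these stood at -0.44, -0.47 and -0.10, and the lowest pairs there were Pcdh19 with Pcdhb16 (-0.54), Cdh7 with Pcdh20 (-0.53) and Cdh16 with Pcdhgc4 (-0.53).

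By subgroup, the median r over 49 regions was 0.53 for the 10 pairs of delta-2 genes and 0.31 for the 66 pairs of clustered genes. It was 0.01 for the 45 pairs of type II genes and 0.00 for all 903 pairs. Clustered genes had some of the most alike pairs, such as Pcdhb17 with Pcdhb20 (0.75) and Pcdhb19 with Pcdhb20 (0.74). Genes on the same chromosome ranged widely. The 28 pairs on chromosome 8 had a median of -0.06, from -0.47 for Cdh1 with Cdh8 to 0.74 for Cdh1 with Cdh5. The type II genes Cdh9 and Cdh10 on chromosome 15 stood at -0.09 and Pcdh17 and Pcdh9 on chromosome 14 at -0.48. Also on chromosome 14, Pcdh8 stood at 0.64 with Pcdh20 and at 0.62 with Pcdh17. On chromosome 1, Cdh19 and Cdh20 stood at 0.68. Cdh7 lies between Cdh20 and Cdh19 and stood at -0.035 with Cdh19. Cdh9 and Cdh10 also went opposite ways between dentate gyrus and CA fields, at 2.10 and -1.25.

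**Figure D5:**
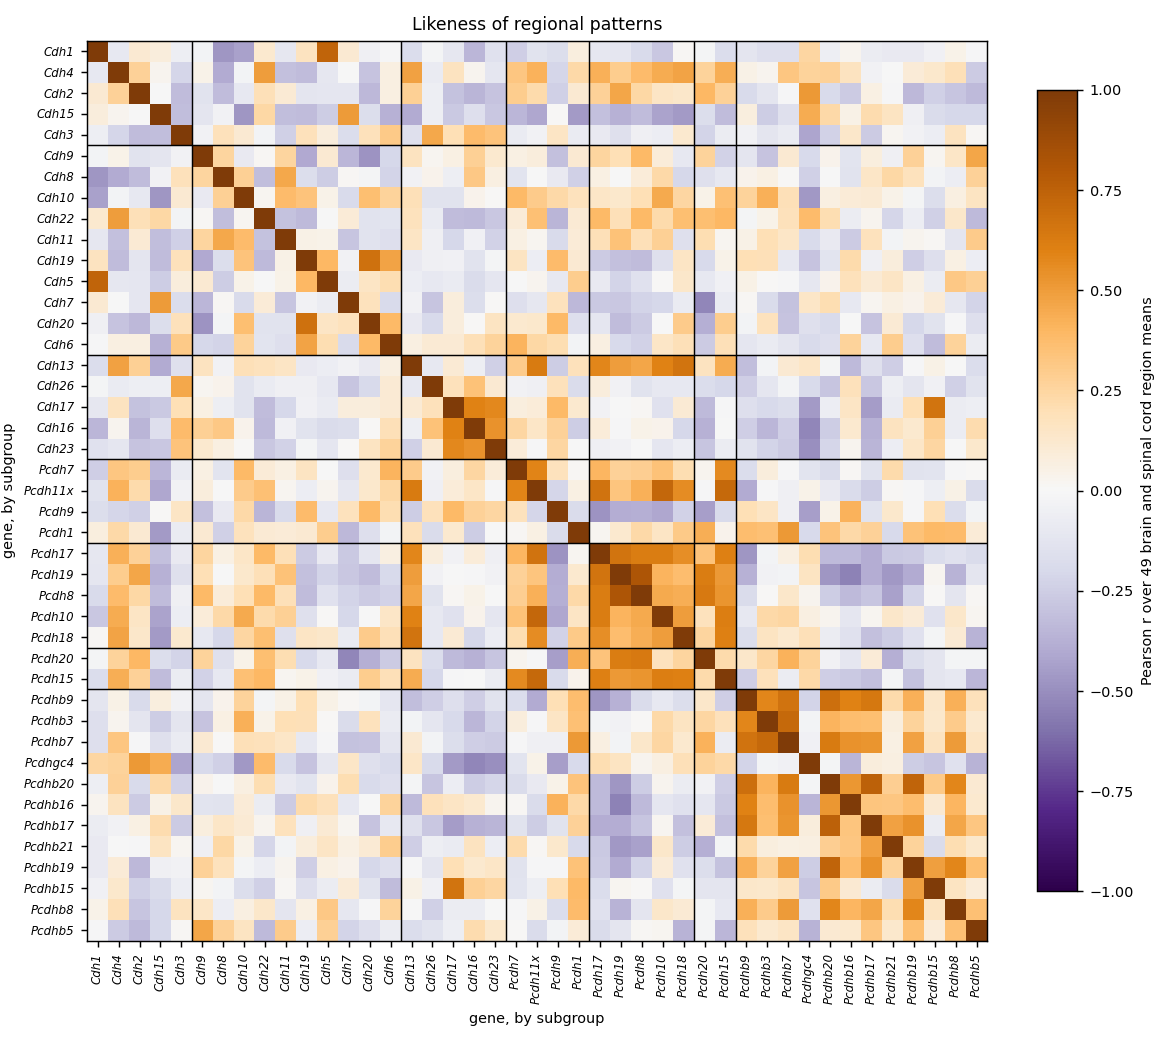
Pearson's r between the regional patterns of 43 genes over 49 brain and spinal cord region means, ordered by subgroup with lines between the subgroups. Orange blocks on the diagonal are the 5 delta-2 genes, with Cdh13, Pcdh11x and Pcdh15 alike to them, and the clustered genes at the lower right; the type II block is pale.

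Partners of cadherins inside the cell were read from whole lists. Of 13 catenins and junction partners, 11 were called across the 52 regions (60.3% of all genes), with a median span of 2.32. Ctnnb1 (beta-catenin), which binds classical cadherins, spanned 1.06. Ctnna2, the alpha-catenin of neurons, was lowest in the pineal gland (6.98), where Ctnna1, the general alpha-catenin, was highest (13.74). Nectin3, an adhesion partner of cadherin junctions, was 1.02 ± 0.10 higher in the hippocampal formation, -2.45 ± 0.11 in the striatum and -1.67 ± 0.27 in CA1 against CA2/CA3. In the other comparisons 1 further catenin-list gene was called, Afdn, with -1.06 in the thalamus. Of 11 listed WAVE complex and other delta-protocadherin partners, 10 were measured; these proteins link to actin through that complex, and all 10 were called across regions, with a median span of 2.12. Wasf1 was 1.61 ± 0.04 higher in the hippocampal formation and 1.13 ± 0.05 in the striatum, where Abi2 (1.04) and the phosphatase Ppp1ca (1.35) were higher too.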

How the data were processed

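RNA of 52 regions was hybridised to 2 Affymetrix arrays each. The authors summarised the probe signals to log2 values with RMA, per the submitters' processing notes; its version, and any filter, are not given in the sources used here. The deposited log2 values were used as they stand. Probe sets with 1 gene symbol were kept, with 1 probe set per gene, the brightest on average. A model with 1 mean per region was fitted to all 18193 genes in limma 3.58.1 (R 4.3.3), with a moderated F test over the regions and 9 contrasts, Benjamini-Hochberg adjustment over all genes and 52 residual degrees of freedom. Arrays give no read depth. The members, gene lists and comparisons were chosen with earlier results of these data known. Values are given for the genes of widest regional span and for genes called in a comparison. Alternatives covered normalisation, dim genes, probe sets, thresholds, variance models, array weights, left-out arrays and regions, and region means as samples. On simulated data 100 of 100 genes changed by 2 log2 units were called in the thalamus contrast, and 0 of 17993 flat genes. The simulated flat genes had noise between arrays but no spread between regions. That run checks the working of the fit and cannot show how calls hold against the spread between regions.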

Additional observations from a re-analysis of the deposited data

How the results depend on the processing

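Counts of called cadherins and protocadherins were 38 across the regions, 4 for POA/BF, 0 for isocortex, 5 each for the hippocampal formation, striatum and thalamus, 2 for hypothalamus, 13 for cerebellar cortex, 2 for CA1 against CA2/CA3 and 4 for the dentate gyrus. With no fold threshold they were 19 for POA/BF, 26 for isocortex, 35 for the hippocampal formation, 35 for striatum, 30 for thalamus, 45 for hypothalamus, 39 for cerebellar cortex, 8 for CA1 and 16 for the dentate gyrus. At 4-fold they were 25 across the regions (26.9% of all genes), 5 for cerebellar cortex, 1 each for POA/BF, the hippocampal formation, thalamus, CA1 and the dentate gyrus, and 0 for striatum and for hypothalamus. The share of all genes is not given for the single comparisons at 4-fold or for the settings that follow. Those counts show how calls moved and not how the family compares with all genes. With all probe sets of a gene averaged, POA/BF had 2, hypothalamus 1 and the dentate gyrus 2. Without pineal gland, pituitary and retina POA/BF had 2. With region means as the samples POA/BF had 0, the hippocampal formation 2, striatum 1 and thalamus 3; with the hybridisation controls added as a covariate, without POA/BF, the last 3 had 3, 1 and 2, and the striatal call was a different gene. Leaving out 1 array at a time gave 2 to 4 calls for POA/BF, the lowest without POA/BF replicate 1. Centring, quantile normalisation, trended variance, array weights, dropping dim genes, and dropping the lateral hypothalamus and retina left each count within 1.5 times; so did dropping POA/BF, an alternative chosen after seeing the data. No call reversed direction. With the replicate number as a block every count was the same (38, 4, 0, 5, 5, 5, 2, 13, 2 and 4). Same-numbered arrays deviated together with a median correlation of -0.00 over 1326 pairs of regions (-0.50 to 0.52). The numbers thus showed no pairing common to all regions, and a median cannot exclude pairing among some of them. Signal near background limits folds whose lower level is under 7.39.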

Other observations

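Relatives of the cadherins outside the naming rule also differed by region. Of 20 other genes of the cadherin superfamily, 16 were called across the 52 regions, against 60.3% of all genes, with a median span of 2.58 log2 units. In the cerebellar cortex Fat2, an atypical cadherin of granule cells, was 2.62 ± 0.08 (SE) higher and Fat1 1.84 ± 0.05 higher than in the other brain and spinal cord regions, while Fat3 differed by -1.28 ± 0.09. Clstn2 (calsyntenin 2), a synaptic cadherin relative, was 1.09 ± 0.07 higher in the hippocampal formation and differed by -1.50 ± 0.08 in the striatum. Cdhr1, a cadherin of photoreceptor outer segments, had its highest mean in the pineal gland (13.41) and its highest brain mean in the anterior olfactory bulb. Fat4 and Cdhr1 were 1.24 ± 0.15 and 1.27 ± 0.14 higher in the dentate gyrus than in the CA fields. Of 4 proteases that cut cadherins, 4 were called across the regions, with a median span of 1.55.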
